A study of Homo sapiens with 18 samples.

Results

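The genes described here copy the chromosomes: 55 human genes of DNA replication and its licensing, given by symbol and grouped by role. A probe set of the array counted for a gene when the platform annotation gave it that gene's symbol alone, and a gene with several such probe sets was read through the one with the highest mean log2(signal + 16) over the 18 arrays. Of the 55 genes, 54 had a probe set, out of 19775 genes in the whole series with a probe set of a single symbol. BRCA2 had none under its symbol and is not analysed here. All 54 lay above the filter on low values, as did 12319 genes in all, so the filter removed no member.

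RNA came from Caco-2, an established line from a human colon tumour that can form an epithelium like that of the gut. The depleted cells, labelled ribo deficient, had grown without riboflavin (vitamin B2, from which cells make FMN and FAD) for 24, 48 or 72 h. The control cells, labelled untreated, were collected at the same 24, 48 and 72 h. Both media were DMEM with foetal calf serum, penicillin and streptomycin, riboflavin-free in the depleted cells, and the labels do not say which arrays had dialysed serum. Each of the 6 groups had 3 arrays. By its title, the study asked how a lack of riboflavin impairs the growth of such cells. Nothing in the labels says whether the 3 arrays of a group came from separate cultures, so p-values measure the spread between these arrays, which may be technical. All cells are of a single line.

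Chromosomes are copied in an ordered way. In early G1 phase the origin recognition complex (ORC), CDC6 and CDT1 load the ring-shaped helicase MCM2 to MCM7 onto origins, which is called licensing. In S phase the kinase CDC7 with DBF4, together with MCM10, CDC45 and the GINS complex, turns the loaded ring into an active helicase. DNA polymerase alpha with primase then starts each strand, and polymerases delta and epsilon, held by the sliding clamp PCNA that the RFC loader places on DNA, extend it. Many of these genes are transcribed by E2F factors at the passage from G1 to S phase, so their RNA is a common marker of dividing cells. The intestinal crypt is where such cells are found in the gut.

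The arrays fell into 3 sets of 6, since the numbers in the sample titles pass through the 6 groups 3 times. Set 2 stood apart, with a median signal of 25.7 to 31.3 units against 18.4 to 22.0 in set 1 and 19.1 to 23.3 in set 3, and once group means were removed each array was most like another of its set. Depleted and control arrays were therefore compared within sets, with the set as a block in the fit, and the counts over all members are also given without the block. Of 12 epithelial markers 11 lay above the filter, and the summed signal of all 12 ran from 20186 to 34181 units over the 18 arrays. FABP1, a fatty acid binding protein of enterocytes and 1 of these markers, was lower in the depleted array of each of the 9 pairs, with 248.7, 66.4 and 223.6 units in depleted cells at 72 h, against 1598.6, 625.4 and 897.6 in control cells. The other epithelial markers were mixed, with the depleted array the lower in 2 (GPA33) to 7 (CDX1) of the 9 pairs. Of 9 leukocyte markers 4 lay above the filter. Each sum covers all markers of a list with a probe set, also those below the filter. The leukocyte sum lay between 350.2 and 407.9 units in depleted cells at 72 h and between 238.4 and 314.4 in control cells. These groups did not overlap. Among the leukocyte markers LYZ alone had all depleted arrays above all control arrays at 72 h. It gave 253.0, 166.5 and 244.4 units, against 153.9, 83.7 and 138.8 in control cells. PTPRC and CD3D were below the filter. Of 9 fibroblast markers 5 lay above it, and the sum over all 9 was 408.8 to 516.3 units in depleted cells and 512.2 to 639.8 in control cells at 72 h. These ranges overlapped, and the markers did not move together. COL1A1 gave 158.8, 121.6 and 152.7 units in depleted cells at 72 h, against 370.6, 294.7 and 285.5 in control cells. PDGFRB, below the filter, was also lower in each set. COL3A1, LUM and DCN were higher in depleted cells in each set at 72 h. The part of these markers in the results was not tested. In RNA from whole cultures, fewer cells in S phase and less RNA of these genes per cell cannot be told apart.

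A promoter here is the window from 250 bases before to 50 bases after a transcription start in RefSeq on build GRCh38.p14. Such windows were listed for 48 of the 55 genes, 62 windows in all. An E2F word was counted where the window held TTTCCCGC, TTTCGCGC, TTTGCCGC or TTTGGCGC on either strand; these words can overlap each other where a word and its reverse complement share bases. Of the 62 member windows 24 held an E2F word, which is 38.7%, against 683 of 14473 windows of the genes tested (4.72%) and 1164 of 35116 in the whole table (3.31%). A CCAAT word on either strand stood in 56.5% of member windows, against 34.9% of windows of genes tested. The word TTTGAA, the core of the cell cycle homology region, stood in 4.84% of member windows against 10.9%. These matches are descriptions of letters and not of bound sites. The 11 stretches of 30 bases that follow are shown because they come from members that were lower in depleted cells averaged over the 3 times; the capitals mark the E2F word, or a word and its overlapping reverse complement in TIPIN, and each runs 5′ to 3′ along the gene's own strand.
CDC6, chr17:40287875-40287904, plus strand: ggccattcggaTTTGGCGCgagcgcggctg
CDT1, chr16:88803743-88803772, plus strand: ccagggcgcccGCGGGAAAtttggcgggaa
MCM3, chr6:52284728-52284757, minus strand: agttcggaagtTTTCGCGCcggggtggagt
MCM7, chr7:100101388-100101417, minus strand: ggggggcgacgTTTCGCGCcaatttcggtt
GINS1, chr20:25407667-25407696, plus strand: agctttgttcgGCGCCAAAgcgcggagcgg
GINS2, chr16:85688967-85688996, minus strand: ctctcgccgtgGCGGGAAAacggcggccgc
POLA1, chrX:24693770-24693799, plus strand: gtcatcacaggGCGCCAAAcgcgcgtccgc
POLE2, chr14:49688201-49688230, minus strand: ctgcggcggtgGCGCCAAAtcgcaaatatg
UHRF1, chr19:4909476-4909505, plus strand: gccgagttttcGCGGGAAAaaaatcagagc
DNMT1, chr19:10194937-10194966, minus strand: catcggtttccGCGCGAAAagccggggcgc
TIPIN, chr15:66356729-66356758, minus strand: gcacggaTTTGGCGCCAAAcgctgcgggcc

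The first base of these words lay from position -137 in POLA1 to position 7 in CDC6, counted from the start. For MCM7, TIPIN, UHRF1 and PCNA the table lists more than 1 start, and the TIPIN stretch belongs to the second of its windows. The 250 bases before the start of MCM6 and before 1 of the 2 listed starts of PCNA follow, because MCM6 held a pair of overlapping E2F words at each of 2 places and PCNA is the member most often used to mark S phase. The capitals mark the E2F words.
MCM6, chr2:135876444-135876693, minus strand: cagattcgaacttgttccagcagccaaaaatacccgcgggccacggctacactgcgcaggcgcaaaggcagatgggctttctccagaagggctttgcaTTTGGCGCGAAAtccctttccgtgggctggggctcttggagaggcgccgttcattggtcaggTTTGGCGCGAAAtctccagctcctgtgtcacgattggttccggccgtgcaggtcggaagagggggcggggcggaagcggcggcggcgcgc
PCNA, chr20:5126623-5126872, minus strand: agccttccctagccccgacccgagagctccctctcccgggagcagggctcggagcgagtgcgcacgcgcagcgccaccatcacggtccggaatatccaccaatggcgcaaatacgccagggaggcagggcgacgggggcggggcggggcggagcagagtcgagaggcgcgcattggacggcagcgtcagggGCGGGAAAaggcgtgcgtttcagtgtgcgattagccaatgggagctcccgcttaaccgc

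Of the 23 measured members with an E2F word in a listed window, 13 were lower in depleted cells past the test averaged over the 3 times, with a median log2 change of -0.37. Of the 24 with windows and no such word, 9 were, with a median of -0.24. Over all 12319 genes the share that fell in this comparison was 8.81%. Members without a listed window are in neither count, among them MCM4, MCM5, POLD3, RPA3 and E2F8, which also fell. The difference between members with and without the word was not tested.

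Replication genes were lower in depleted cells as a group. Averaged over the 3 times, 27 of the 54 members fell and none rose, at an adjusted p below 0.05 (limma with the set as block, Benjamini-Hochberg over 27307 probe sets). Over all 12319 genes, 8.81% fell and 8.4% rose in the same comparison. The median log2 change was -0.30 over the members and 0.0017 over all genes, on the log2(signal + 16) scale, and 48 of 54 members were below 0. Without the block 10 members fell, against 2.16% of all genes, and these were CDC6, CDT1, MCM4, MCM10, GINS1, POLA1, PCNA, UHRF1, TIPIN and E2F8. Leaving out set 1, 2 or 3 left 5, 16 and 5 members. Over all fits without an array or a set, 558 to 3739 probe sets passed in this comparison, against 4097 with all arrays.

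The median difference was widest at 72 h. At 24 h 6 members fell (MCM4, MCM10, GINS2, UHRF1, TIPIN and E2F8) and none rose, against 0.982% of all genes that fell and 1.98% that rose, with a median member change of -0.27. At 48 h no member passed the limma test in either direction, against 0.244% and 0.568% of all genes. At that time 16 of the 54 members had an unadjusted p below 0.05, against 4328 of the 27307 probe sets tested, and the median was -0.23. At 72 h 16 members fell and none rose, against 8.65% and 6.21% of all genes, with a median of -0.43. Without the block the counts were 0 at 24 h (0.0649% of all genes, 12 members with an unadjusted p below 0.05), 0 at 48 h (0.0244%, 5 members) and 6 at 72 h (2.47%). Of the 27307 probe sets tested, 2285 at 24 h and 2033 at 48 h had such an unadjusted p without the block. The 6 at 72 h were MCM4, GINS1, POLA1, PCNA, UHRF1 and E2F8. The count at 24 h rested on single arrays, with 0 or 1 member left when any of the 6 arrays of that time was left out and 3 without the control array of set 3 at 72 h. At 72 h it was 10 without the control array of set 1 at that time and 8 without the depleted array of set 2, while leaving out sets 1, 2 and 3 gave 1, 10 and 4. Over all fits without an array or a set, 0 to 738 probe sets passed at 24 h and 349 to 3799 at 72 h. With all arrays 646 and 3631 passed. The 6 members called without the block were also called in each of the 18 fits without a single array, and the other 10 were lost in 2 to 6 of those fits, all without an array of 72 h except that CDC7 was also lost without the control array of set 1 at 48 h.

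**Figure D1:**
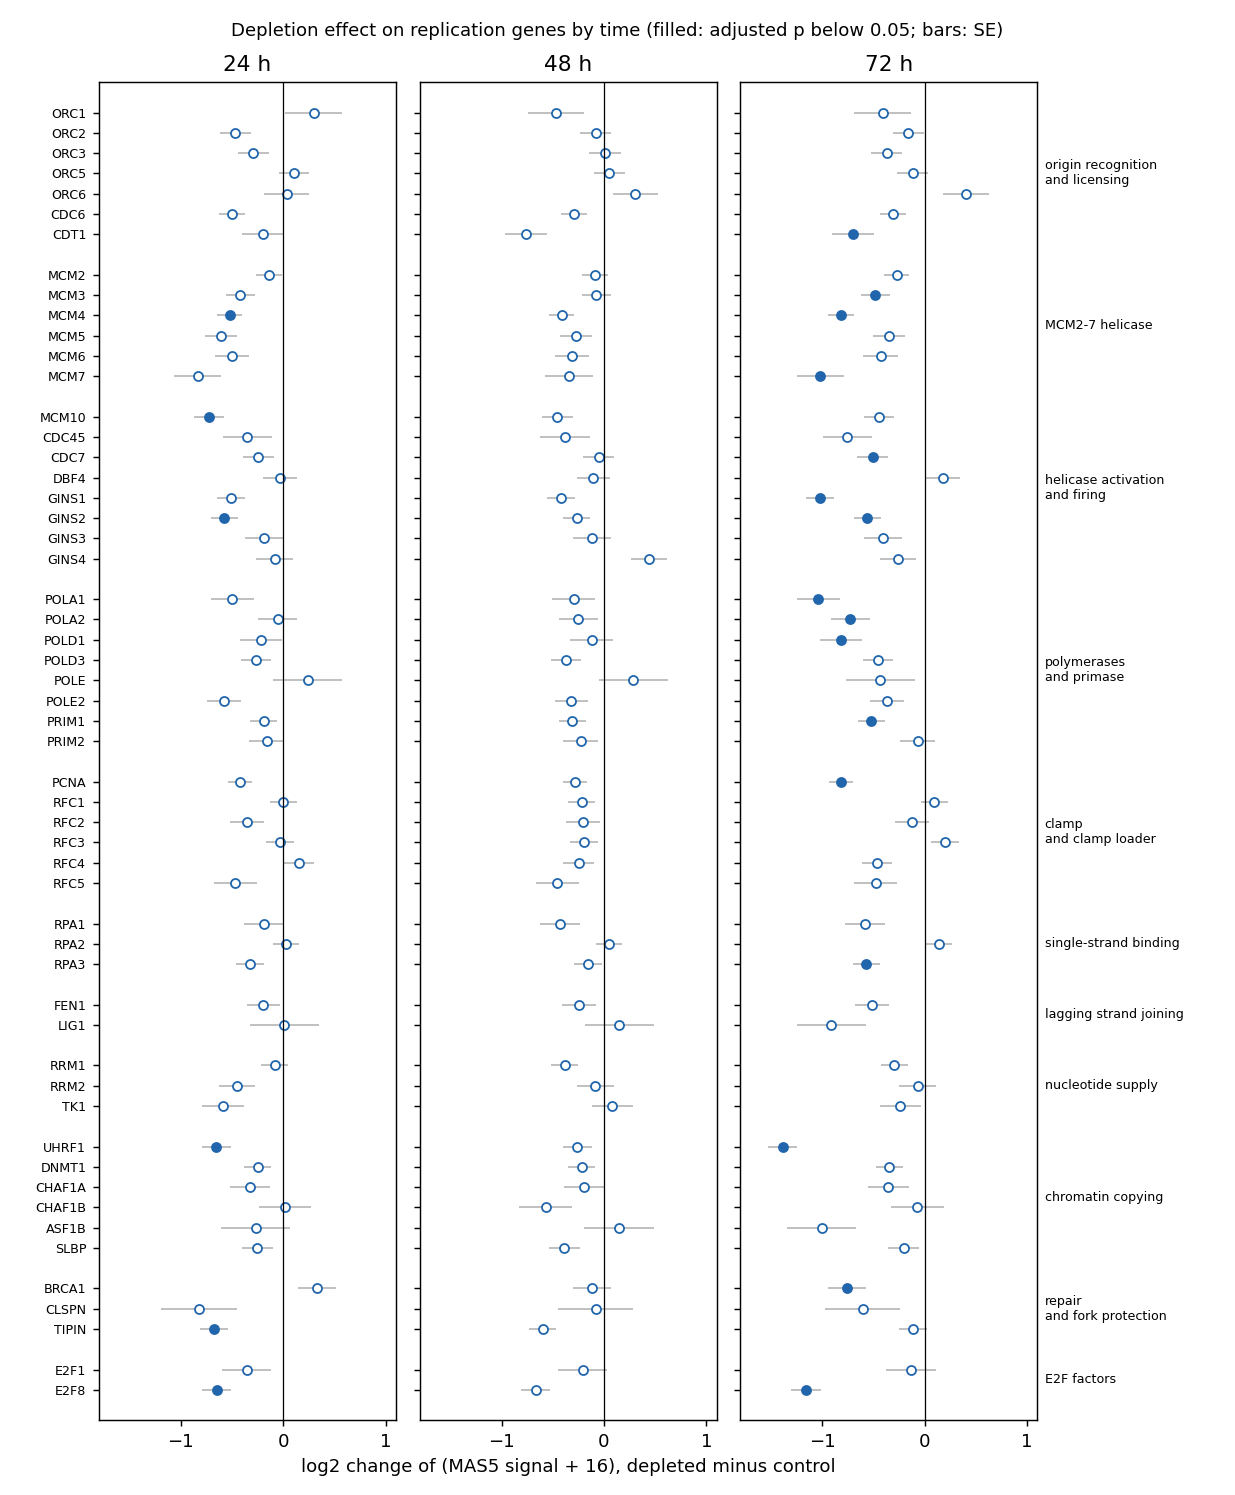
Depletion effect on each of the 54 members at 24, 48 and 72 h, as the log2 change of (MAS5 signal + 16), depleted minus control; bars are standard errors, genes are grouped by role, and filled points have an adjusted p below 0.05. Points lie left of 0 for 44 members at 24 h, 45 at 48 h and 49 at 72 h, and the filled ones number 6, 0 and 16.

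The arrays themselves separated most often at 72 h. At 24 h all 3 depleted arrays lay below all 3 control arrays for 12 of the 54 members, against 6.12% of all genes. At 48 h this held for 8 members, against 4.66%, and at 72 h for 17, against 13.4%. No member had all depleted arrays above all control arrays at any time, and the share of all genes in this direction is not given here. In 18 members the depleted array was the lower in each of the 9 pairs of a set and a time, against 4.98% of all genes. These were CDC6, CDT1, MCM4, MCM5, MCM6, MCM10, GINS1, GINS2, POLD3, POLE2, PRIM1, PCNA, RPA1, FEN1, UHRF1, DNMT1, SLBP and E2F8. Within sets, the median member difference at 72 h was -0.46 in set 1, -0.62 in set 2 and -0.30 in set 3, and at 24 h it was -0.28, -0.29 and -0.31.

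Among the origin recognition and licensing genes, the loading factors CDC6 and CDT1 fell and the ORC subunits did not pass the test through the probe sets used. CDC6, the ATPase that joins ORC at the origin, gave 253.0, 256.8 and 256.3 units in sets 1, 2 and 3 of depleted cells at 24 h, against 342.0, 351.3 and 411.4 in control cells. The depleted arrays lay below the control arrays at 24, 48 and 72 h. Its averaged log2 change was -0.37 (SE 0.07, adjusted p = 0.0052, limma). CDT1, which escorts the MCM ring to the origin, gave 483.6, 421.1 and 510.6 units in depleted cells at 72 h, against 921.0, 721.1 and 705.1 in control cells. These groups did not overlap, nor did those at 48 h, and the change at 72 h was -0.70 (SE 0.21, adjusted p = 0.037). The other CDT1 probe set went the other way in the averaged effect, at 0.09 against -0.55 for the one used. ORC2, the subunit of ORC with the smallest p, averaged -0.24 (SE 0.09, adjusted p = 0.085), and its arrays at 24 h gave 231.0, 216.4 and 145.3 units in depleted cells, against 280.2, 272.2 and 271.5 in control cells. The other ORC2 probe set passed at 72 h (-0.63, adjusted p = 0.038), where the one used stood at -0.16 (adjusted p = 0.55). ORC6 stood at 0.25 (adjusted p = 0.22). The probe sets of CDT1 and ORC6 are of a type that can match other transcripts.

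The helicase ring was lower in 5 of its 6 subunits in the averaged effect. MCM4 gave 566.0, 753.0 and 678.7 units in depleted cells at 24 h, against 925.1, 984.7 and 959.5 in control cells. At 48 h MCM4 gave 716.2, 916.4 and 743.0 units in depleted cells, against 942.4, 1212.2 and 1021.6 in control cells. By 72 h MCM4 gave 459.4, 512.8 and 460.7 units in depleted cells, against 727.1, 916.8 and 931.1 in control cells. The groups were apart at all 3 times, and the averaged log2 change was -0.58 (SE 0.07, adjusted p = 0.00018). The other MCM4 probe sets averaged -0.35, -0.58 and -0.28, the last not past the test. At 72 h they stood at -0.26, -0.98 and -0.09, against -0.82 for the one used. MCM7 varied more between sets: at 72 h it gave 264.7, 269.2 and 372.4 units in depleted cells, against 549.8, 530.3 and 821.8 in control cells. Its change at 72 h was -1.02 (SE 0.23, adjusted p = 0.011), a 2.03-fold lower value, but without the block the adjusted p was 0.25. MCM5 averaged -0.41 (SE 0.09, adjusted p = 0.0089), MCM6 -0.41 and MCM3 -0.32, all past the test with the block and none without it. MCM2 averaged -0.17 (adjusted p = 0.14), with 838.7, 680.9 and 862.0 units in depleted cells at 72 h, against 931.1, 959.9 and 986.3 in control cells.

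Of the 8 genes that activate the loaded helicase, MCM10, CDC45, GINS1 and GINS2 fell in the averaged effect. GINS1, a subunit of the complex that bridges helicase and polymerase epsilon, gave 495.3, 472.0 and 411.4 units in depleted cells at 72 h, against 1077.4, 892.3 and 885.6 in control cells. At 24 h it gave 893.7, 928.3 and 677.4 units in depleted cells, against 1232.8, 1346.3 and 988.4 in control cells. The groups were apart at both times and the log2 change at 72 h was -1.02 (SE 0.14, adjusted p = 0.0004). MCM10, a factor that helps to start the helicase, gave 296.3, 307.9 and 308.1 units in depleted cells at 24 h, against 476.6, 574.2 and 492.3 in control cells. Its averaged change was -0.54 (SE 0.09, adjusted p = 0.0011), and its groups were apart at each time. The other MCM10 probe sets averaged -0.16 and -0.28 (adjusted p = 0.36 and 0.21). At 24 h they stood at -0.21 and -0.36, and they passed at no time. GINS2 averaged -0.47 (SE 0.08, adjusted p = 0.0013), although another of its 3 probe sets stood at 0.10. CDC45, the partner of MCM and GINS in the active helicase, averaged -0.50 (adjusted p = 0.030) but was not called in 9 of the 18 fits without a single array. The kinase CDC7 passed at 72 h (-0.51, adjusted p = 0.038), and its activator DBF4 averaged 0.01. GINS3 and GINS4 did not pass, at -0.24 and 0.03. The sign of GINS4 turned with quantile normalization (-0.0064).

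Of the 8 polymerase and primase genes 5 fell in the averaged effect and 4 at 72 h. POLA1, the catalytic subunit of polymerase alpha, gave 54.1, 33.7 and 35.5 units in depleted cells at 72 h, against 112.9, 79.7 and 109.9 in control cells. The groups were apart at 72 h only, with a change of -1.04 (SE 0.21, adjusted p = 0.0056), and 0.036 without the block. PRIM1, the primase catalytic subunit, gave 408.2, 237.3 and 403.9 units in depleted cells at 72 h, against 638.1, 401.1 and 473.4 in control cells. Within each set the depleted array was the lower, although the groups overlapped, and the change was -0.52 (SE 0.13, adjusted p = 0.019). POLE2, an accessory subunit of polymerase epsilon, averaged -0.42 (SE 0.10, adjusted p = 0.0099), with 284.2, 306.4 and 247.5 units in depleted cells at 24 h, against 448.0, 490.5 and 347.3 in control cells. POLD1, the catalytic subunit of polymerase delta, and POLD3, an accessory subunit, averaged -0.38 and -0.37 (adjusted p = 0.046 and 0.011), and POLD1 was still called in 5 of the 18 fits without a single array. POLA2, the accessory subunit of polymerase alpha, passed at 72 h (-0.73, adjusted p = 0.024). POLE, the catalytic subunit of polymerase epsilon, and PRIM2, the large primase subunit, averaged 0.03 and -0.15 and did not pass. In POLE the depleted arrays at 72 h gave 65.3, 169.4 and 107.8 units, against 85.2, 234.8 and 166.1 in control cells.

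The clamp fell, and of the 5 measured subunits of its loader only RFC5 passed. PCNA gave 1516.2, 1274.9 and 1299.9 units in depleted cells at 24 h, against 1930.2, 1649.8 and 1909.5 in control cells. At 48 h PCNA gave 1685.8, 1334.7 and 1532.8 units in depleted cells, against 2035.8, 1685.7 and 1811.7 in control cells. By 72 h PCNA gave 938.3, 748.3 and 1026.5 units in depleted cells, against 1762.2, 1445.6 and 1588.3 in control cells. The groups were apart at 24 and 72 h and overlapped at 48 h, where the depleted array was still the lower within each set. The change at 72 h was -0.82 (SE 0.12, adjusted p = 0.00069), a 1.76-fold lower value. RFC5, a small subunit of the loader, averaged -0.47 (SE 0.12, adjusted p = 0.020), with another of its 3 probe sets at 0.04. RFC2 averaged -0.23 (adjusted p = 0.13), RFC4 -0.19, RFC1 -0.04 and RFC3 -0.01. RFC3, another small subunit, gave 849.0, 950.1 and 780.4 units in depleted cells at 72 h, against 738.6, 839.5 and 673.0 in control cells, so each depleted array was there the higher within its set.

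Of RPA, the trimer that coats single-stranded DNA, 2 of 3 subunits fell. RPA3 averaged -0.35 (SE 0.08, adjusted p = 0.0090), with 956.8, 534.5 and 774.0 units in depleted cells at 72 h, against 1438.0, 850.0 and 1084.5 in control cells. RPA1, the large subunit, averaged -0.40 (SE 0.11, adjusted p = 0.027, called in 12 of the 18 fits without a single array), and its depleted arrays at 72 h, at 894.9, 613.8 and 658.9 units, lay below the control arrays at 1196.8, 1080.3 and 964.9. RPA2 averaged 0.07 (adjusted p = 0.56), with 513.5, 424.9 and 472.6 units in depleted cells at 72 h, against 468.9, 384.3 and 422.6 in control cells. For joining of lagging strand pieces, the flap nuclease FEN1 averaged -0.32 (SE 0.10, adjusted p = 0.039). FEN1 was still called in 5 of the 18 fits without a single array. The ligase LIG1 averaged -0.25 and did not pass, with 87.6, 30.8 and 98.9 units in depleted cells at 72 h, against 107.5, 153.4 and 161.4 in control cells.

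Of the nucleotide supply genes, RRM1, the large subunit of ribonucleotide reductase, averaged -0.25 (SE 0.08, adjusted p = 0.040) and was still called in 3 of the 18 fits without a single array. RRM2, the small subunit, averaged -0.20 (adjusted p = 0.21) through the probe set used. Its other probe set averaged -0.50 and passed (adjusted p = 0.00027), and in the averaged effect no further member was called solely by a probe set that was not used. Thymidine kinase TK1 averaged -0.25 (adjusted p = 0.18), and its other probe set passed at 72 h (-0.48, adjusted p = 0.040). Its 3 depleted arrays at 24 h gave 317.1, 223.0 and 447.8 units, against 411.3, 444.8 and 621.5 in control cells, lower in each set.

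Among the genes that carry chromatin through replication, UHRF1 showed the widest difference of all 54 members at 72 h. UHRF1 recognises hemimethylated DNA and brings the maintenance methyltransferase DNMT1 to it. It gave 567.6, 394.8 and 601.9 units in depleted cells at 24 h, against 755.2, 652.5 and 1101.1 in control cells. At 48 h it gave 597.8, 434.5 and 887.8 units in depleted cells, against 708.8, 603.0 and 938.9 in control cells. By 72 h UHRF1 gave 254.0, 224.9 and 363.0 units in depleted cells, against 688.0, 676.4 and 891.7 in control cells. The groups were apart at 24 and 72 h and overlapped at 48 h. The log2 changes were -0.65 at 24 h (adjusted p = 0.027), -0.26 at 48 h (adjusted p = 0.39) and -1.39 at 72 h (SE 0.14, adjusted p = 5.17e-05), the last a 2.62-fold lower value. DNMT1 averaged -0.27 (SE 0.08, adjusted p = 0.030) and SLBP, which binds the stem-loop of histone messages, -0.28 (SE 0.09, adjusted p = 0.044), each lower in 9 of 9 pairs. DNMT1 was still called in 8, and SLBP in 3, of the 18 fits without a single array. The histone chaperones CHAF1A, CHAF1B and ASF1B averaged -0.29, -0.21 and -0.38 and did not pass. ASF1B gave 101.6, 93.5 and 135.0 units in depleted cells at 72 h, against 183.0, 213.2 and 328.6 in control cells, without overlap (-1.01, SE 0.34, adjusted p = 0.067).

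Of the 3 measured genes of repair and fork protection, TIPIN passed at 24 h, BRCA1 at 72 h and CLSPN at no time. TIPIN, a fork protection partner of TIMELESS, gave 258.3, 217.6 and 246.5 units in depleted cells at 24 h, against 478.4, 323.0 and 393.3 in control cells. TIPIN at 72 h gave 252.4, 258.5 and 256.1 units in depleted cells, against 328.7, 240.0 and 272.7 in control cells. The groups were apart at 24 and 48 h and overlapped at 72 h, with log2 changes of -0.68 (adjusted p = 0.019), -0.60 (adjusted p = 0.061) and -0.12 (adjusted p = 0.64). BRCA1, which repairs broken DNA by homologous recombination and protects forks, gave 266.6, 238.1 and 194.9 units in depleted cells at 24 h, against 215.8, 163.8 and 168.1 in control cells. At 72 h it gave 119.3, 101.4 and 119.7 units in depleted cells, against 190.8, 209.4 and 209.2 in control cells. Each depleted array was thus the higher of its pair at 24 h and the lower at 72 h. The changes were 0.33 at 24 h (adjusted p = 0.39) and -0.76 at 72 h (SE 0.19, adjusted p = 0.015, and 0.051 without the block). CLSPN, an adaptor of the replication checkpoint, averaged -0.50 (SE 0.21, adjusted p = 0.13). Some of its arrays lay below the filter value of 19.62 units, with 45.2, 1.8 and 28.5 units in depleted cells at 24 h, against 51.4, 52.8 and 41.7 in control cells.

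E2F8, an atypical factor that represses E2F targets and is itself transcribed in S phase, had the smallest p of all members in the averaged effect. It gave 392.6, 351.1 and 291.3 units in depleted cells at 24 h, against 666.4, 502.1 and 488.2 in control cells. At 48 h it gave 475.6, 344.3 and 452.4 units in depleted cells, against 795.5, 720.3 and 540.7 in control cells. At 72 h it gave 231.5, 196.7 and 188.2 units in depleted cells, against 587.5, 423.4 and 433.8 in control cells. All depleted arrays lay below all control arrays at each time, and the averaged change was -0.83 (SE 0.08, adjusted p = 4.49e-05, and 0.0015 without the block). E2F1, an activator of these genes, averaged -0.23 (adjusted p = 0.30), with 83.1, 188.4 and 151.9 units in depleted cells at 72 h, against 102.7, 310.8 and 99.5 in control cells.

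**Figure D2:**
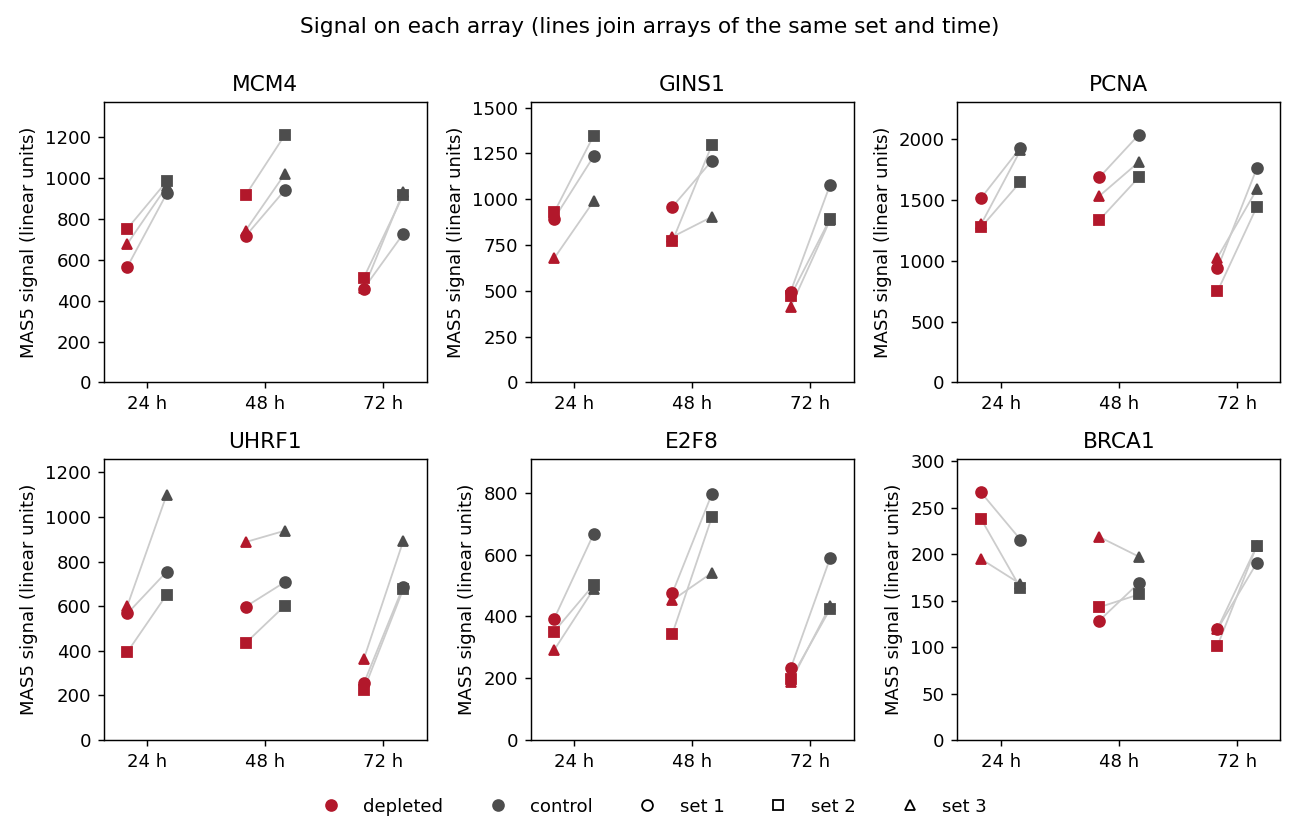
MAS5 signal in linear units on each array for MCM4, GINS1, PCNA, UHRF1, E2F8 and BRCA1, with depleted arrays to the left of control arrays at each time; symbols give the set and lines join the arrays of the same set and time. Every depleted array lies below its control partner in the first 5 genes, while BRCA1 has the depleted array higher in each set at 24 h and lower in each set at 72 h.

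Between roles, the share of members that fell in the averaged effect was 5 of 6 for the helicase ring, 5 of 8 for polymerases and primase, 4 of 8 for helicase activation, 2 of 6 for clamp and loader, 2 of 7 for origin recognition and licensing, and 1 of 3 for repair and fork protection, against 8.81% of all genes. Without the block these counts were 1 of 6, 1 of 8, 2 of 8, 1 of 6, 2 of 7 and 1 of 3 in the same order, against 2.16% of all genes, so the order of the roles did not hold. Median averaged changes were -0.41 in the ring, -0.36 in polymerases and primase, -0.37 in helicase activation, -0.21 in clamp and loader, and -0.22 in origin recognition and licensing. The repair genes had a median of -0.46 over 3 genes. At 72 h the medians were -0.46, -0.49, -0.48, -0.30 and -0.31 in the same order of the first 5 roles, and -0.60 in repair. That repair median is the value of CLSPN, which did not pass (limma adjusted p = 0.32). CLSPN gave 34.9, 2.8 and 23.8 units in depleted cells at 72 h, near the filter value, against 46.5, 36.7 and 24.6 in control cells. Chromatin copying, also with 6 genes, had 3 lower in the averaged effect and 1 without the block. Its medians were -0.29 averaged and -0.35 at 72 h. The remaining roles are not compared here. Differences between roles were not tested, the roles hold few genes each, and their ranges overlapped.

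**Figure D3:**
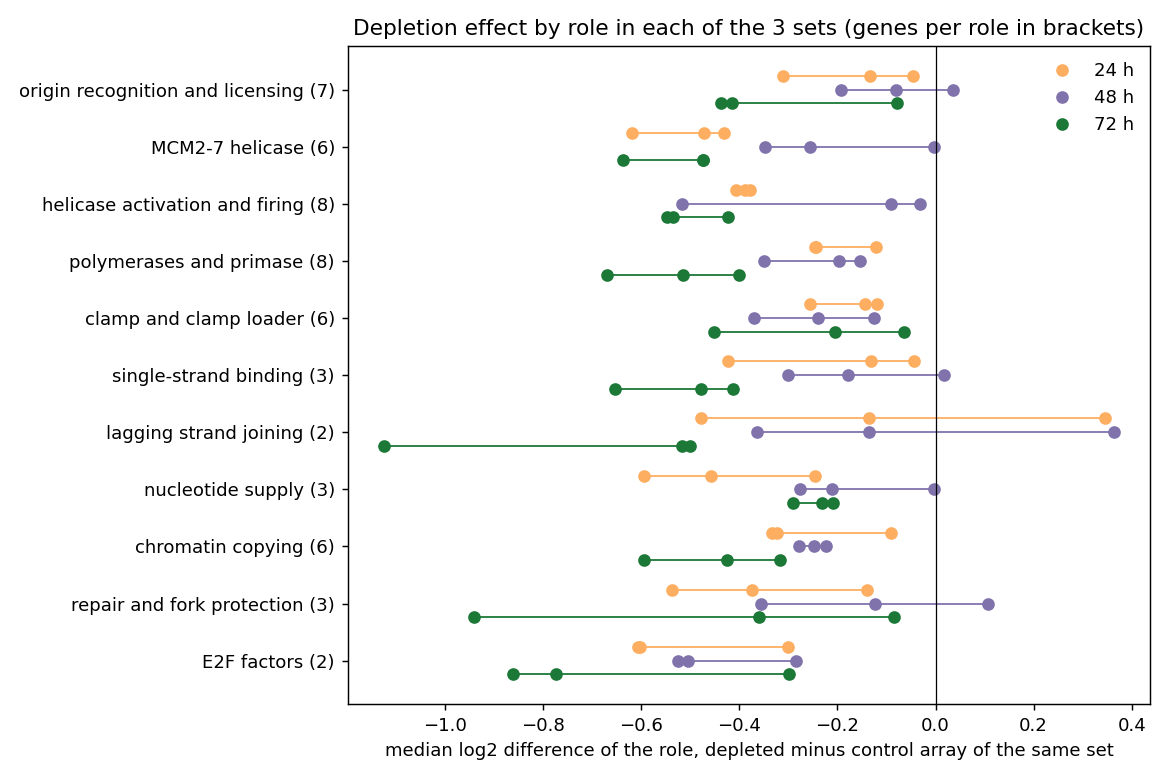
Median log2 difference of each role, depleted minus control array of the same set, with 1 point for each of the 3 sets at 24, 48 and 72 h and a line over their range. The roles overlap, and their points at 72 h are all below 0.

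The effect itself changed with time in few members. From 24 to 72 h the depletion effect of BRCA1 moved by -1.09 (SE 0.26, adjusted p = 0.032), the only member to pass, against 3.47% of all genes that moved down. Without the block its adjusted p was 0.12, and it was not called in 10 of the 18 fits without a single array, namely without any array of 24 or 72 h except the control array of set 1 and the depleted array of set 3 at 24 h. The other BRCA1 probe set stood at -0.30, -0.01 and -0.19 at 24, 48 and 72 h, and so did not show the higher value at 24 h. Next by p were UHRF1 and RFC4, at -0.74 (adjusted p = 0.051) and -0.63 (adjusted p = 0.11). From 48 to 72 h UHRF1 moved by -1.13 (SE 0.20, adjusted p = 0.013), again the only member to pass, against 1.43% of all genes. This call held in each of the 18 fits without a single array, in none of the 3 without a set, and not without the block (adjusted p = 0.39). GINS1 and PCNA followed by p, at -0.61 and -0.54 (adjusted p = 0.12 for each), while the changes of all members ran from -1.15 to 0.50. From 24 to 48 h no member passed the limma test, nor did any of the 12319 genes. Only 1 member had an unadjusted p below 0.05, TK1 at 0.67 (adjusted p = 0.60), and the share of all genes with such a p is not given here. GINS4 and UHRF1 were next by p, at 0.52 and 0.39, while the changes of all members ran from -0.77 to 0.74.

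Over time within a medium, the calls came in depleted cells, though most members were lower at 72 h in both media. Between 24 and 72 h, 10 members fell in depleted cells and none rose, against 7.12% of all genes that fell. They were MCM4, CDC7, GINS1, GINS2, PCNA, RPA3, FEN1, UHRF1, BRCA1 and E2F8. BRCA1 stood at -0.94, UHRF1 at -0.86, GINS1 at -0.83 and E2F8 at -0.70 (adjusted p = 0.0069, 0.0024, 0.0027 and 0.0088). In control cells no member passed the limma test over the same interval, against 0.576% of all genes. There 9 members had an unadjusted p below 0.05, and the share of all genes with such a p is not given here. Of the 54 members 38 were below 0 in control cells, with a median of -0.13, and 44 in depleted cells, with a median of -0.25. Over all genes the medians were 0.0124 and -0.0217. Of the members called in depleted cells, BRCA1 alone passed the test of a changed effect from 24 to 72 h. Without the block 2 members fell in depleted cells, against 1.2% of all genes. Leaving out the depleted array of set 2 at 24 h, or that of set 1 or set 2 at 72 h, left 5 of the 10, and leaving out sets 1, 2 and 3 left 0, 5 and 1. The share of all genes in these fits is not given here.

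**Figure D4:**
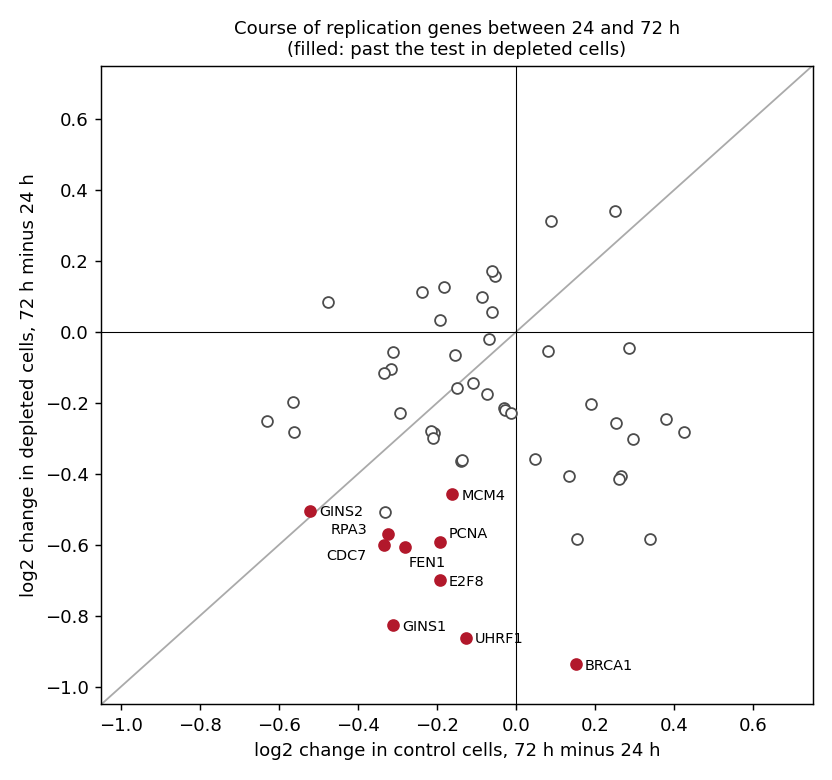
Log2 change of (MAS5 signal + 16) between 24 and 72 h for the 54 members, in depleted cells on the vertical axis and in control cells on the horizontal axis; filled points passed the test in depleted cells. The 10 filled points lie between -0.46 and -0.94 in depleted cells, and BRCA1 is the only one of them to the right of 0 in control cells.

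A second list of 53 replication genes outside the 55, covering the remaining subunits, loaders, nucleotide enzymes, checkpoint genes and S-phase cyclins, had 49 genes above the filter. Of these 16 fell and 1 rose in the averaged effect, with a median of -0.21, against 8.81% of all genes that fell and 8.4% that rose. At 24 h 3 fell and 1 rose, against 0.982% and 1.98% of all genes. At 48 h none passed the limma test (10 had an unadjusted p below 0.05), against 0.244% and 0.568%, and at 72 h 13 fell and none rose, against 8.65% and 6.21%. Of the 27307 probe sets tested, 4328 had an unadjusted p below 0.05 at 48 h. Without the block 6 fell and 1 rose in the averaged effect, against 2.16% and 2.48% of all genes. None passed at 24 h (6 had an unadjusted p below 0.05) or at 48 h (4 had), against 0.0649% and 0.0244% that fell. Such an unadjusted p was held by 2285 and 2033 of the 27307 probe sets at these times. At 72 h 2 fell without the block, against 2.47% of all genes. Cyclin A2 (CCNA2), which drives S phase, gave 567.4, 808.5 and 528.7 units in depleted cells at 72 h, against 795.3, 1116.3 and 756.5 in control cells. Each depleted array was lower than its partner, with an averaged change of -0.48 (SE 0.07, adjusted p = 0.00069, and 0.11 without the block). EXO1, an exonuclease of mismatch repair, averaged -0.49 (SE 0.08, adjusted p = 0.0014) and cyclin E1 (CCNE1), which drives entry into S phase, -0.53 (SE 0.09, adjusted p = 0.0015). CCNE1 gave 81.4, 104.0 and 96.7 units in depleted cells at 72 h, against 175.3, 211.7 and 171.5 in control cells. The gene that rose was ASF1A, a histone chaperone related to ASF1B, at 0.55 (SE 0.09, adjusted p = 0.0016, and 0.015 without the block). It gave 547.1, 555.8 and 515.6 units in depleted cells at 24 h, against 268.3, 401.2 and 317.9 in control cells, with no overlap.

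Where a member had more than 1 probe set above the filter, the probe sets mostly went together. Of 26 such members 22 had the same sign in all of them in the averaged effect, and CDT1, GINS2, RFC1 and RFC5 did not. The probe set used was called in 13 of the 26, and in 10 of these 13 not every probe set of the gene was called. These 10 were CDT1, MCM4, MCM5, MCM6, MCM10, GINS2, POLD3, RFC5, FEN1 and RRM1. No member was called higher through any probe set.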

How the data were processed

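The deposited values are MAS5 signal intensities of an Affymetrix array on a linear scale, made by the authors with MAS5 per the submitters' processing notes; the sources used here give no version. Raw scans and detection calls were not used here, and the number of arrays limits the precision. The table held 54675 probe sets on 18 arrays, of which 41097 carry a single symbol, 1801 several and 11777 none. After removal of 62 control probe sets, 27307 with a mean log2(signal + 16) at or above the median of 5.1546 remained. All 18 arrays were fitted in limma 3.58.1 (R 4.3.3) with 6 group means and the set as block, and the Benjamini-Hochberg adjustment ran over all probe sets tested at a threshold of 0.05. The pairing comes from the sample numbering in the labels. With group means removed, arrays correlated at 0.302 to 0.602 within a set and at -0.754 to 0.163 between sets. The negative values between sets come in part from removing the means, since the 3 arrays of a group lie in different sets. The titles of 3 arrays of set 2 carry an unexplained suffix. Background shares count 12319 genes with 1 probe set each. Alternatives were no block, pseudocounts of 1 and 64, no filter, quantile normalization, centring on the 75th percentile, the mean of a gene's probe sets, and leaving out each array or set. The fit was tested on simulated data. Full values are given for up to 3 members of each role by smallest p in the average, for the 3 with the smallest p in each change of the effect, and for the other replication genes with the 3 smallest p in each direction. Values of further members, such as MCM2, POLE, RFC3 and ASF1B, were added after the values were seen. The members and lists were chosen with earlier results of these data known. Promoter windows are from RefSeq (GRCh38.p14). Figures were drawn with matplotlib 3.10.9.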

Additional observations from a re-analysis of the deposited data

Results flagged for a closer look

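The depletion effect on BRCA1 differed between times: the change from 24 to 72 h was -1.0883 on the log2 scale (SE 0.26, adjusted p = 0.032 in limma), with the depleted array higher in 3 of 3 sets at 24 h and lower in 3 of 3 sets at 72 h. The adjusted p without the block was 0.12. BRCA1 was the only member to pass, against 3.47% of all genes that moved down. The call was lost in 10 of the 18 fits without a single array and in each of the 3 without a set. The other BRCA1 probe set stood at -0.30, -0.01 and -0.19 at 24, 48 and 72 h.

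The depletion effect on UHRF1 also differed between times: the change from 48 to 72 h was -1.1294 (SE 0.20, adjusted p = 0.013 in limma), with the depleted array lower in 3 of 3 sets at both times. The adjusted p without the block was 0.39. UHRF1 was the only member to pass here, against 1.43% of all genes that moved down. The call held in each of the 18 fits without a single array and was lost in each of the 3 without a set.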

How the results depend on the processing

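The count of members lower in the averaged effect was 27 with the set as block and 10 with no replicate block, and it ran from 5 to 25 when an array or a set was left out. At 24 h the count of 6 became 0 with no replicate block, 0 without a filter on low values and 12 with a pseudocount of 64, with a range of 0 to 7 over the left-out arrays and sets. At 48 h the count of 0 became 3 with a pseudocount of 64, and 2 both with centring on the 75th percentile and with the mean of a gene's probe sets. At 72 h the count of 16 became 6 with no replicate block and 9 without the filter (1 to 19 over left-out arrays and sets). Between 24 and 72 h in depleted cells the 10 became 2 with no replicate block and 5 without the filter (0 to 10), and in control cells the 0 became 3 with a pseudocount of 64 and 1 with the mean of probe sets. Members whose effect changed from 24 to 72 h numbered 1, but 0 with no replicate block, without the filter and with centring, and 2 with a pseudocount of 64 and with quantile normalization (0 to 2). From 48 to 72 h they numbered 1, but 0 with no replicate block and without the filter, and 3 with quantile normalization (0 to 1). No member passed as higher in any depletion comparison under these alternatives. Over all probe sets the averaged count of 4097 became 1162 with no replicate block and 2485 without the filter (558 to 3739). At 24 h the 646 became 59, 205 and, with a pseudocount of 64, 1150 (0 to 738), at 48 h the 189 became 22, 64 and 358 (0 to 197), and at 72 h the 3631 became 1136 and 2273 (349 to 3799). The averaged split over all probe sets, 2334 higher and 1763 lower, became 1665 and 2193 with centring. The member median at 24 h, -0.27, was -0.24 with a pseudocount of 64, -0.2961 with quantile normalization and -0.2985 with centring (-0.3180 to -0.2356). At 48 h centring moved the median of all probe sets by -0.12, and the member median, -0.23, to -0.36, which left it at -0.30 relative to all probe sets under both. The averaged change of GINS4, 0.03, was -0.0064 with quantile normalization and -0.016 with centring (-0.0388 to 0.17). Of the values under the alternatives for the members that the naming rule singles out, 1011 kept their direction and side of the threshold, 149 lost the call, 10 gained it and 6, all of GINS4, turned in sign. The cause of these changes was not tested, except that leaving out arrays leaves fewer samples.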
